A study of Homo sapiens with 6 samples.

Results

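The 45 genes described here encode fibronectin, 19 collagen chains, 8 laminin chains, 16 integrin subunits and the hyaluronan receptor CD44. They were taken by name as a list of matrix genes and matrix receptors, and all 45 were found among the 60658 gene identifiers of the series. RNA was sequenced from 6 human prostate carcinoma cell lines, with 1 library per line, and the study set taxane-resistant lines beside the lines they came from. CTXR is a cabazitaxel-resistant line derived from DTXR and kept under 5 nM cabazitaxel, DTXR is a docetaxel-resistant line derived from DU145 and kept under 5 nM docetaxel, and DU145 is their parent. CabR is a cabazitaxel-resistant line derived from TaxR and kept under 5 nM cabazitaxel, TaxR is a docetaxel-resistant line derived from C4-2B and kept under 5 nM docetaxel, and C4-2B is their parent, a line descended from LNCaP. All 6 lines were left untreated before harvest, so the resistant lines were compared as selected populations and not under drug. Both drugs are taxanes, which bind microtubules and keep them from disassembling. TaxR has the word old in its sample title, with no explanation given.

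Values are FPKM, fragments scaled for transcript length and library size, so levels of different genes can be set side by side per length. The total was 711766 to 818430 FPKM per library, and no source used here gives the number of reads. Steps in the lowest values put the depth of the other 5 libraries at 1.09 to 1.52 times that of C4-2B. Mitochondrial genes took 26.5% to 40.7% of the total in 5 libraries and 17.9% in C4-2B. Markers of the DU145 side, such as ANXA1 and CAV1, summed to 2445 to 3263 FPKM in the DU145 lineage, and to 5.68 FPKM in CabR, 39.2 FPKM in TaxR and 9.34 FPKM in C4-2B. In TaxR 9 of those 10 DU145-side markers lay above C4-2B, and in CabR 7 of 10 did. Over all 10 markers the median difference from C4-2B was 1.38% of the DU145 level in TaxR and 0.0492% in CabR. TaxR log2 ratios of COL12A1, COL7A1, ITGA3 and CD44 are therefore given with and without such a share. Markers of fibroblasts summed to at most 2.69 FPKM in any library, those of endothelium to at most 2.06 FPKM and those of blood cells to at most 1.65 FPKM. FAP, a fibroblast marker, and PTPRC, a blood cell marker, were listed at 0 in all 6 libraries. The epithelial markers summed to 216 to 997 FPKM.

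The matrix around an epithelial cell has a basement membrane, a sheet built of collagen IV and laminin networks, and an interstitial part of fibrillar collagens and fibronectin. Collagen IV is a trimer of alpha chains whose genes lie in head-to-head pairs, COL4A1 with COL4A2, COL4A3 with COL4A4 and COL4A5 with COL4A6, each pair transcribed outward from a shared region between the starts. Laminins are trimers of 1 alpha, 1 beta and 1 gamma chain, and integrins are receptors of 1 alpha and 1 beta subunit that bind these ligands and tie them to the actin cytoskeleton. ITGA5 with ITGB1 is the classical fibronectin receptor, ITGA3 or ITGA6 with ITGB1 binds laminins, and ITGA1, ITGA2 or ITGA10 with ITGB1 binds collagens.

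The regions between the collagen IV pairs are shown because each pair is transcribed from a single stretch of DNA. The members of a pair can thus be compared along the lineages. The start of FN1 is shown because, of the measured members, FN1 had the largest log2 ratio to C4-2B in CabR and in TaxR. All are from RefSeq on GRCh38.p14, written 5' to 3' on the strand of the gene named. Capitals mark matches on either strand to any of 5 short motifs. The GC box was searched as GGGCGG and the CCAAT box as CCAAT. The TATA box was searched as TATAAA. An AP-1 site was read as TGANTCA, with any base at N. The cyclic AMP response element was read as TGACGTCA.
COL4A1 to COL4A2, chr13:110307158-110307283, plus strand, all 126 bases between the starts: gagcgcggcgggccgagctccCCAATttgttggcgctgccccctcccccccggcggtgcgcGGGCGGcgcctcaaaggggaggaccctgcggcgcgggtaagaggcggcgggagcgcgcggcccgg
COL4A4 to COL4A3, chr2:227164374-227164623, plus strand, the 250 bases before the COL4A3 start: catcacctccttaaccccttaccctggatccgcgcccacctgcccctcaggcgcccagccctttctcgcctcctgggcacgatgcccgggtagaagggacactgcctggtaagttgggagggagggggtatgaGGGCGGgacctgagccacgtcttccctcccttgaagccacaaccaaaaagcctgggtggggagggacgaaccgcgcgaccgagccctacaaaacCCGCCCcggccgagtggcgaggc
COL4A6 to COL4A5, chrX:108439588-108439837, plus strand, the 250 bases before the COL4A5 start: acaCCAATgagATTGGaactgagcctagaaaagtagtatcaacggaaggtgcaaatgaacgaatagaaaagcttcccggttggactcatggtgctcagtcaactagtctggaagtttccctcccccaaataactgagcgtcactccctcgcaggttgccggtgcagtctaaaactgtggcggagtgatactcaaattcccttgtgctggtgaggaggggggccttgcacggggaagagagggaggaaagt
FN1, chr2:215436069-215436318, minus strand, the 250 bases before the FN1 start: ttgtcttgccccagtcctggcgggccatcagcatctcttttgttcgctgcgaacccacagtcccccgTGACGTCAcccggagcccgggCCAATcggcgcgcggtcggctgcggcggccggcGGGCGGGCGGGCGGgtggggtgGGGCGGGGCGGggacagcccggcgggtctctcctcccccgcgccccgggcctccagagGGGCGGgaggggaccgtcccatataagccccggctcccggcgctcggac
The COL4A1 to COL4A2 region held 1 GC box and 1 CCAAT box and was 80.2% G and C, against a median of 60.3% over 35116 promoter windows of 126 bases. A GC box was found in 34.6% and a CCAAT box in 21.1% of those windows. The COL4A4 to COL4A3 region, part of the 418 bases between those starts, held 2 GC boxes and was 66.4% G and C. The COL4A6 to COL4A5 region, part of 379 bases, held 2 CCAAT boxes, no GC box, and was 51.2% G and C. The FN1 window held 6 GC boxes, 1 CCAAT box and 1 cyclic AMP response element, some of the GC boxes overlapping, and was 76.4% G and C. Over all 250-base windows the median was 58.0%, and 42.6% held a GC box, 32.0% a CCAAT box and 1.65% a cyclic AMP response element. The 3 regions between collagen IV genes thus had different compositions. These letters are descriptions of the reference sequence and not measurements in these lines.

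Of the 45 genes 36 were measured, meaning that they reached 1 FPKM in at least 1 library, as did 17436 genes in all. The 9 others were COL5A1, COL6A3, COL17A1, LAMA4, ITGA4, ITGA11, ITGB3, ITGB6 and ITGB8. ITGA4, the alpha subunit of a fibronectin and VCAM1 receptor of blood cells, was listed at 0 in all 6 libraries, and the highest of the other 8 was ITGA11 with 0.797 FPKM in C4-2B. With 1 library per line a pair of lines has no replicate check, so genes were called by size alone, higher at a log2 ratio of FPKM + 1 of 1 or more and lower at -1 or less. This scale understates the ratio of low genes, and a gene that was measured through its high library only is more apt to pass, so the counts are descriptions. In cell cultures too, fewer cells that make an RNA and less of it per cell cannot be told apart.

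More matrix genes passed the size rule in the DU145 lineage than in the C4-2B lineage, but part of this was fixed by the rule. On the FPKM + 1 scale a gene below 1 FPKM in all 3 libraries of a lineage cannot pass there. In the C4-2B lineage that held for COL1A2, COL3A1, COL5A2, COL4A1, COL4A3, COL4A4, COL4A6, COL12A1, LAMB3, ITGA1 and ITGA10. In the DU145 lineage it held for COL13A1 only. The counts of the 2 lineages are therefore not like for like. In CTXR against DU145 7 of the 36 measured genes were higher and 4 lower, beside 7.45% and 5.47% of all measured genes, or 12.9% in either direction. In DTXR against DU145 6 were higher and 5 lower, beside 5.37% and 5.1% of all, or 10.5% in either direction. In each the 11 genes are 30.6% of the 36. The comparison of CabR with C4-2B gave 2 higher and 1 lower, beside 2.67% and 6.2% of all, or 8.87% in either direction. That of TaxR with C4-2B gave 2 higher and 1 lower, beside 2.52% and 5.64% of all, or 8.16% in either direction. In each of those the 3 genes are 8.3% of the 36, and with a pseudocount of 0.1 FPKM 6 genes passed in each. Of the next steps, CTXR against DTXR had 5 higher and 6 lower, beside 7.29% and 5.25% of all, or 12.5% in either direction. CabR against TaxR had 1 higher and 1 lower, beside 1.75% and 1.84% of all, or 3.59% in either direction, and 8 genes passed with the smaller pseudocount. CTXR and DTXR share DU145 as the line they are set against, and CabR and TaxR share C4-2B. The median log2 ratio of the 36 genes was 0.16 in CTXR and 0.11 in DTXR against DU145, and -0.14 in CabR and -0.08 in TaxR against C4-2B, while that of all measured genes was 0.00 in these 4.

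**Figure D1:**
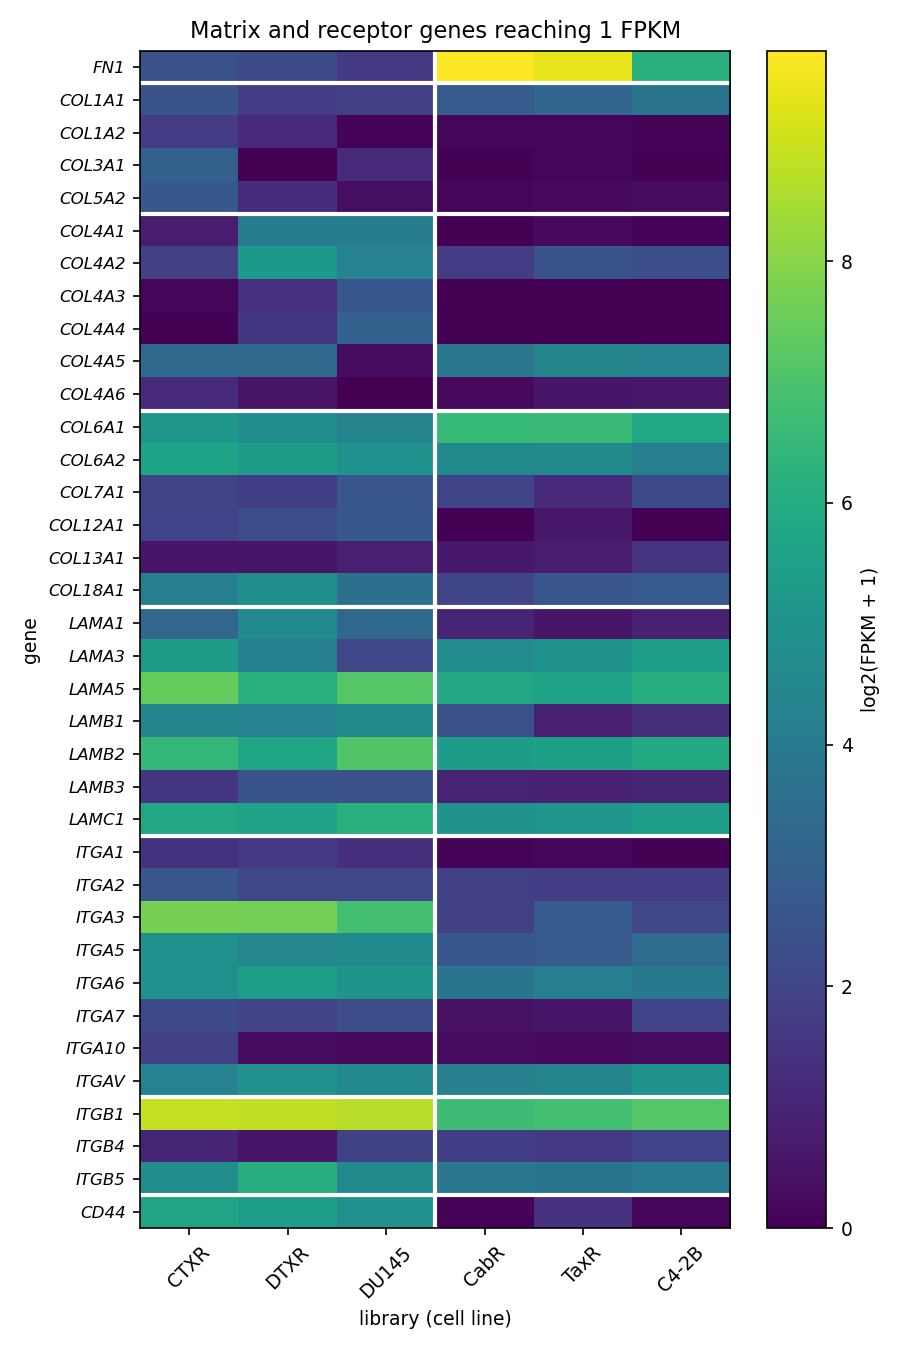
Levels of the measured matrix and receptor genes as log2(FPKM + 1) in each of the 6 libraries, with genes ordered by role. FN1 is highest in CabR and TaxR, while ITGA3, ITGB1 and CD44 are highest in the 3 DU145-lineage libraries.

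Collagen IV was the group with the most members past the size rule in CTXR against DU145. In CTXR against DU145 2 of its 6 genes were higher and 4 lower, with a median log2 ratio of -2.49. In DTXR against DU145 1 was higher and 2 lower, with a median of 0.23. The laminin chains matched that number in DTXR, with 2 higher and 1 lower, and of 3 measured integrin beta genes 1 was higher and 1 lower. In CabR and TaxR against C4-2B none of the 6 collagen IV genes passed, though COL4A6 did in CabR with a pseudocount of 0.1 FPKM, at -1.14. COL4A1, COL4A3, COL4A4 and COL4A6 lay below 1 FPKM in every C4-2B-lineage library, so on the FPKM + 1 scale they could not pass. Only COL4A2 and COL4A5 could have passed in that lineage. The shares of all measured genes are those given above for each pair of lines.

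Gene positions are those of GENCODE release 29 on GRCh38, and RefSeq places some starts differently. COL4A1, at chr13:110148963-110307233 on the minus strand, encodes an alpha chain of the widespread basement membrane trimer, and had 0.689 FPKM in CTXR and 16.0 FPKM in DTXR, against 16.4 FPKM in DU145. COL4A2, at chr13:110305812-110513209 on the plus strand, encodes its partner chain and had 2.55 FPKM in CTXR and 35.7 FPKM in DTXR, against 19.2 FPKM in DU145. Both genes were thus low in CTXR alone of the DU145 lineage, with log2 ratios against DTXR of -3.33 for COL4A1 and -3.37 for COL4A2. The log2 ratios of CTXR against DU145 were -3.36 and -2.51, and those of DTXR against DU145 were -0.03 and 0.86. In the C4-2B lineage COL4A1 stayed below 0.2 FPKM, while COL4A2 had 2.24 FPKM in CabR and 4.62 FPKM in TaxR, against 4.10 FPKM in C4-2B. COL4A2 exceeded COL4A1 by a factor of 3.70 in CTXR, 2.23 in DTXR and 1.17 in DU145, so the pair did not keep 1 ratio along the lineage.

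COL4A3, at chr2:227164565-227314792 on the plus strand, and COL4A4, at chr2:227002711-227164453 on the minus strand, encode chains of the trimer of kidney, lung and some other basement membranes. COL4A3 had 0.125 FPKM in CTXR and 1.64 FPKM in DTXR, against 5.29 FPKM in DU145. COL4A4 had 0.0315 FPKM in CTXR and 1.97 FPKM in DTXR, against 7.09 FPKM in DU145. Both were highest in DU145 and lowest in CTXR, with log2 ratios against DU145 of -2.48 and -1.25 for COL4A3 and -2.97 and -1.45 for COL4A4, CTXR before DTXR. COL4A3 was listed at 0 in all 3 libraries of the C4-2B lineage and COL4A4 at most at 0.0122 FPKM.

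COL4A5, at chrX:108439844-108697545 on the plus strand, encodes a chain that trimerises with those of COL4A3 and COL4A4 or with that of COL4A6. It had 9.09 FPKM in CTXR and 9.08 FPKM in DTXR, against 0.267 FPKM in DU145, a log2 ratio of 2.99 for each. This was opposite in direction to COL4A3 and COL4A4. In the C4-2B lineage COL4A5 was the most abundant of the 6 collagen IV RNAs, with 13.6 FPKM in CabR and 20.7 FPKM in TaxR, against 19.2 FPKM in C4-2B. COL4A6, at chrX:108155607-108439497 on the minus strand, had 1.23 FPKM in CTXR and 0.416 FPKM in DTXR and was listed at 0 in DU145. The log2 ratio of COL4A6 in CTXR against DU145 was 1.16, and COL4A6 lay between 0.190 and 0.539 FPKM in the C4-2B lineage.

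Summed over the 6 genes, collagen IV RNA came to 13.7 FPKM in CTXR and 64.8 FPKM in DTXR, against 48.2 FPKM in DU145, and to 16.0 FPKM in CabR and 26.0 FPKM in TaxR, against 23.9 FPKM in C4-2B. COL4A5 was 66.3% of this sum in CTXR and 14.0% in DTXR, against 0.554% in DU145. In the C4-2B lineage it was 84.7% in CabR and 79.5% in TaxR, against 80.2% in C4-2B. In the makeup of its collagen IV RNA, CTXR was thus nearer to the C4-2B lineage than DTXR or DU145 was, while COL4A1 remained at 5.03% of the sum in CTXR and under 1% in the C4-2B lineage. The plot of the head-to-head pairs shows the 3 patterns side by side.

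**Figure D2:**
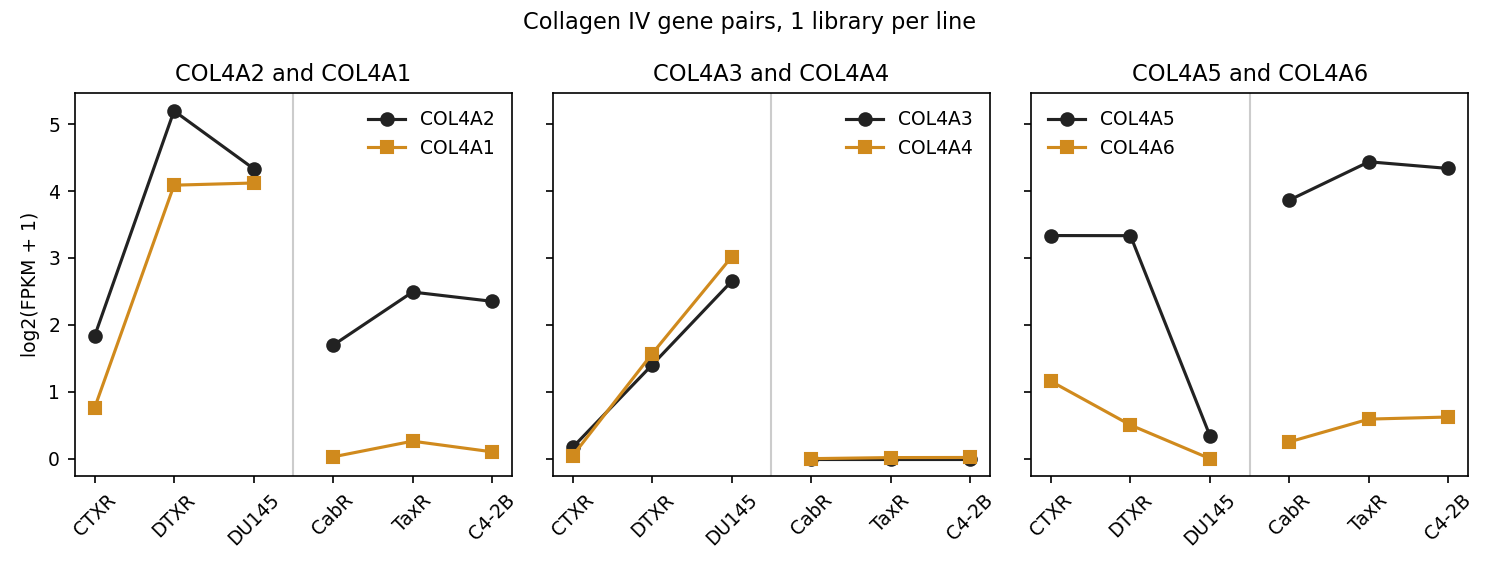
Levels of the 6 collagen IV genes as log2(FPKM + 1) in the 6 libraries, 1 panel per head-to-head gene pair, with lines joining the libraries of a lineage. COL4A1 and COL4A2 are low in CTXR among the DU145-lineage lines, COL4A3 and COL4A4 are highest in DU145, and COL4A5 is near 9 FPKM in CTXR and DTXR and 0.267 FPKM in DU145.

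Of the measured members FN1 had the largest log2 ratios of FPKM + 1 against C4-2B in both CabR and TaxR. FN1, at chr2:215360440-215436172 on the minus strand, encodes the glycoprotein that integrins assemble into fibrils, and had 854 FPKM in CabR and 662 FPKM in TaxR, against 71.7 FPKM in C4-2B. The FPKM ratio to C4-2B was 11.9 in CabR and 9.23 in TaxR, with log2 ratios of 3.56 and 3.19. On plain FPKM the ratio of CD44, a low gene in that lineage, was larger in TaxR at 13.8. CabR against TaxR gave 0.37, so most of the difference was already present in the docetaxel-resistant line. In the DU145 lineage FN1 was at a low level, with 4.28 FPKM in CTXR and 3.79 FPKM in DTXR, against 2.12 FPKM in DU145, and log2 ratios of 0.76 and 0.62. Fibroblasts are rich in FN1 RNA, and the summed fibroblast markers were 1.02 FPKM in CabR and 2.66 FPKM in TaxR, against 2.69 FPKM in C4-2B. The part of fibroblasts in the FN1 values was not tested. With the DU145-side share taken out the log2 ratio of FN1 in TaxR was also 3.19. FN1 had only 2.12 FPKM in DU145, so that step could not move the ratio and tells nothing about it.

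The fibronectin receptor subunits were not higher where their ligand was. ITGA5, the alpha subunit of that receptor, had 5.21 FPKM in CabR and 5.94 FPKM in TaxR, against 9.52 FPKM in C4-2B, with log2 ratios of -0.76 and -0.60. ITGB1, the beta subunit shared by most matrix integrins, had 102 FPKM in CabR and 112 FPKM in TaxR, against 144 FPKM in C4-2B, with log2 ratios of -0.49 and -0.36. ITGAV, the alpha subunit of several other fibronectin and vitronectin receptors, had 18.0 FPKM in CabR and 20.1 FPKM in TaxR, against 31.1 FPKM in C4-2B. All 3 subunits were lower in both resistant lines than in C4-2B, each by less than the size rule. The ratio of FN1 to ITGA5 was accordingly 164 in CabR and 111 in TaxR, against 7.53 in C4-2B. In the DU145 lineage that ratio was 0.149 in CTXR and 0.174 in DTXR, against 0.087 in DU145.

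**Figure D3:**
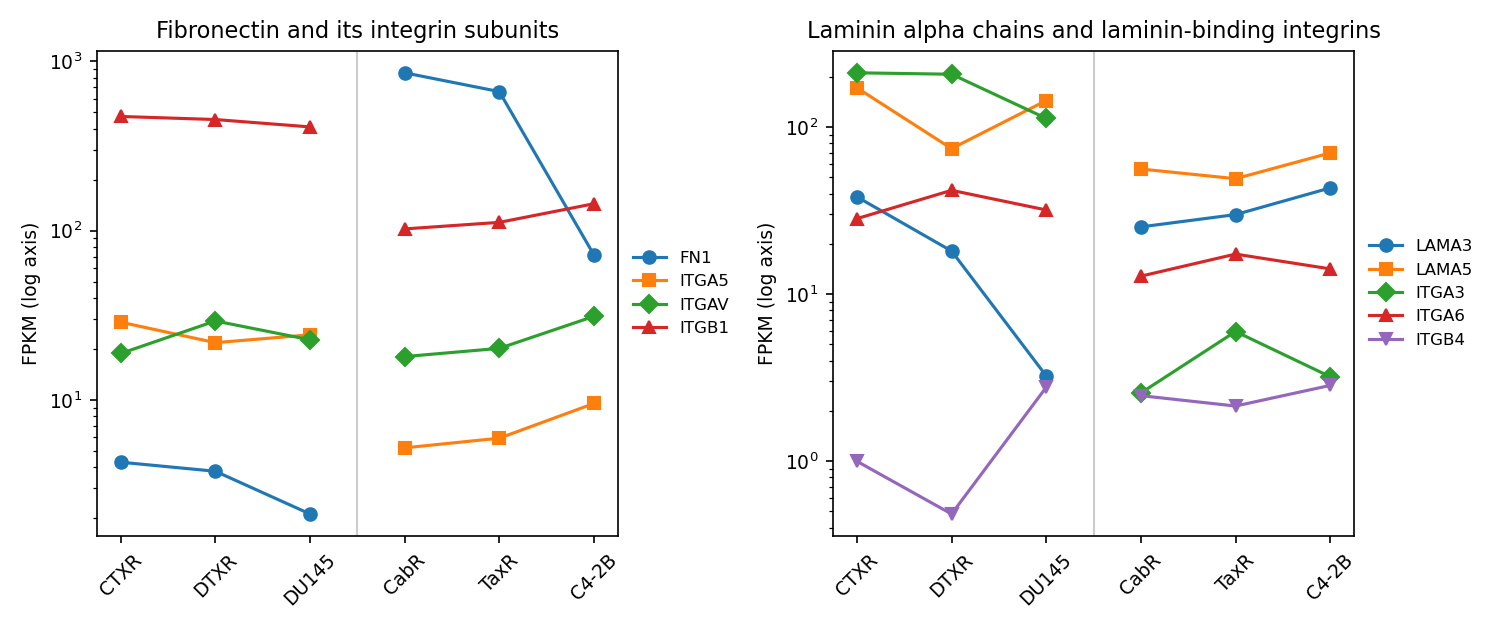
FPKM, on a log axis, of matrix ligands and of their integrin subunits in the 6 libraries, with lines joining the libraries of a lineage. FN1 is at 854 and 662 FPKM in CabR and TaxR and at 71.7 FPKM in C4-2B, while ITGA5 and ITGB1 are lower in CabR and TaxR than in C4-2B.

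Of the fibrillar collagens 4 of 5 were measured, and on the FPKM + 1 scale they differed from DU145 more in CTXR than in DTXR. COL1A2, a chain of collagen I, had 2.25 FPKM in CTXR and 1.24 FPKM in DTXR, against 0.0762 FPKM in DU145. COL3A1, the chain of collagen III, had 6.85 FPKM in CTXR and 0.0296 FPKM in DTXR, against 1.31 FPKM in DU145. COL5A2, a chain of collagen V that copolymerises with collagen I, had 5.35 FPKM in CTXR and 1.38 FPKM in DTXR, against 0.291 FPKM in DU145. All 3 were highest in CTXR, with log2 ratios to DU145 of 1.59, 1.76 and 2.30. In DTXR COL3A1 was lower than in DU145, at -1.17, and COL5A2, at 0.88, was under the size rule, while COL1A2 passed at 1.06. With a pseudocount of 0.1 FPKM COL3A1 stood at -3.44 in DTXR and 2.30 in CTXR, and COL5A2 passed in DTXR at 1.92. COL1A1, the other collagen I chain, had 4.58 FPKM in CTXR and 2.33 FPKM in DTXR, against 2.61 FPKM in DU145. It was higher in the C4-2B lineage, with 6.10 FPKM in CabR and 8.005 FPKM in TaxR, against 12.3 FPKM in C4-2B, where COL1A2, COL3A1 and COL5A2 were all below 0.3 FPKM. The 2 collagen I chains thus had unequal RNA in each of the 6 libraries. The summed fibroblast markers were 1.63 FPKM in CTXR and 1.68 FPKM in DTXR, against 1.20 FPKM in DU145, and their part in the fibrillar collagen values was not tested.

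Of the other collagens COL6A1 and COL6A2, chains of the beaded filaments of collagen VI, were the most abundant. COL6A1 had 34.5 FPKM in CTXR and 27.8 FPKM in DTXR, against 19.7 FPKM in DU145, and 91.4 FPKM in CabR and 92.5 FPKM in TaxR, against 55.7 FPKM in C4-2B. COL6A2 had 49.2 FPKM in CTXR and 40.9 FPKM in DTXR, against 29.8 FPKM in DU145, and 23.9 FPKM in CabR and 23.3 FPKM in TaxR, against 17.3 FPKM in C4-2B. Both chains were higher in all 4 resistant lines than in the parent, with log2 ratios between 0.41 and 0.78, all under the size rule. COL6A1 divided by COL6A2 was 0.703 in CTXR and 0.679 in DTXR, against 0.661 in DU145, and 3.82 in CabR and 3.97 in TaxR, against 3.22 in C4-2B. The third chain of the common trimer, COL6A3, was not measured.

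COL18A1, the basement membrane collagen that yields endostatin, had 17.6 FPKM in CTXR and 27.7 FPKM in DTXR, against 11.1 FPKM in DU145, and passed the size rule in DTXR at 1.24. It shares 1401 exonic bases with SLC19A1 on the opposite strand, which was at 29.6 to 55.3 FPKM, and whether strand was used in counting was not given, so the COL18A1 level is uncertain. COL12A1, a collagen that binds to the surface of fibrils, had 2.88 FPKM in CTXR and 4.03 FPKM in DTXR, against 5.36 FPKM in DU145, and 0.0353 FPKM in CabR and 0.553 FPKM in TaxR, against 0.0535 FPKM in C4-2B. The TaxR excess of COL12A1 was 9.31% of its DU145 level, and its log2 ratio in TaxR was 0.56, or 0.49 with the median DU145-side share taken out. With a pseudocount of 0.1 FPKM that log2 ratio was 2.09, past the size rule, and the plain FPKM ratio of TaxR to C4-2B was 10.3. COL7A1, of the anchoring fibrils, lay just outside the size rule in TaxR against C4-2B at -0.99, with 1.29 FPKM in TaxR and 3.56 FPKM in C4-2B, and passed it at -1.04 with the DU145-side share taken out. COL13A1, a transmembrane collagen, was highest in C4-2B at 1.85 FPKM and lay between 0.496 and 0.8004 FPKM in the other libraries.

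LAMA5 and LAMB2 were the most abundant laminin alpha and beta chains of the list in all 6 libraries, and with LAMC1 they make up laminin-521. LAMA5 had 172 FPKM in CTXR and 74.3 FPKM in DTXR, against 144 FPKM in DU145, and 56.1 FPKM in CabR and 49.1 FPKM in TaxR, against 70.0 FPKM in C4-2B. LAMB2 had 87.8 FPKM in CTXR and 53.1 FPKM in DTXR, against 135 FPKM in DU145, and 40.1 FPKM in CabR and 45.9 FPKM in TaxR, against 59.5 FPKM in C4-2B. LAMC1, the common gamma chain, had 55.2 FPKM in CTXR and 47.3 FPKM in DTXR, against 71.7 FPKM in DU145, and 30.7 FPKM in CabR and 33.1 FPKM in TaxR, against 42.2 FPKM in C4-2B. These chains were lower in the resistant lines than in the parent in all cases but LAMA5 in CTXR, and LAMB2 in DTXR, at -1.33, was the only one to pass the size rule. LAMA5 shares 244 exonic bases with ADRM1 on the opposite strand, which was at 64.3 to 90.8 FPKM. It also shares 118 exonic bases with LAMA5-AS1 on the opposite strand, listed at 0 in CTXR, 0.389 FPKM in DTXR and 0 in DU145, and at 14.3 FPKM in CabR, 23.1 FPKM in TaxR and 32.5 FPKM in C4-2B.

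LAMA3, at chr18:23689443-23956222 on the plus strand, encodes the alpha chain of laminin-332, the laminin of hemidesmosomes. It had 38.2 FPKM in CTXR and 18.1 FPKM in DTXR, against 3.24 FPKM in DU145, with log2 ratios of 3.21 and 2.17. In the C4-2B lineage it had 25.3 FPKM in CabR and 29.9 FPKM in TaxR, against 43.2 FPKM in C4-2B, with log2 ratios of -0.75 and -0.52. LAMA3 was thus higher in both resistant DU145 lines and lower in both resistant C4-2B lines. LAMB3, the beta chain of laminin-332, had 1.89 FPKM in CTXR and 4.60 FPKM in DTXR, against 4.30 FPKM in DU145, and 0.874 to 0.986 FPKM in the C4-2B lineage. Among the alpha chains LAMA3 made up 17.5% of the RNA in CTXR and 15.4% in DTXR, against 2.08% in DU145.

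LAMA1, the alpha chain of laminin-111, had 8.26 FPKM in CTXR and 24.6 FPKM in DTXR, against 8.66 FPKM in DU145, and was higher by the size rule in DTXR at 1.40. LAMB1, a beta chain common to many laminins, had 19.9 FPKM in CTXR and 18.9 FPKM in DTXR, against 22.8 FPKM in DU145. Along the C4-2B lineage LAMB1 had 4.30 FPKM in CabR and 0.812 FPKM in TaxR, against 1.54 FPKM in C4-2B, with log2 ratios of 1.06 for CabR against C4-2B and 1.55 for CabR against TaxR. LAMB1 was the only measured member higher by the size rule in CabR against TaxR. It shares 70 exonic bases with DLD on the opposite strand, which had 126 FPKM in CabR, 110 FPKM in TaxR and 108 FPKM in C4-2B. A further 221 exonic bases are shared with AC005046.1, also on the opposite strand and at most at 1.61 FPKM. Whether strand was used in counting was not given, so the low LAMB1 levels of the C4-2B lineage are uncertain.

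Of the integrin subunits 8 alpha and 3 beta were measured. Of the 8 alpha subunits ITGA10 alone passed in CTXR against DU145, beside 12.9% of all measured genes, and none in DTXR against DU145, beside 10.5%. ITGA7 alone passed in CabR and in TaxR against C4-2B, beside 8.87% and 8.16% of all. ITGA10, a collagen receptor subunit of cartilage, had 2.59 FPKM in CTXR and 0.246 FPKM in DTXR, against 0.203 FPKM in DU145, a log2 ratio of 1.58 in CTXR. ITGA7, a laminin receptor subunit best known from muscle, had 0.341 FPKM in CabR and 0.485 FPKM in TaxR, against 2.86 FPKM in C4-2B, with log2 ratios of -1.53 and -1.38. Both genes were at low levels, and ITGA7 overlaps exons of METTL7B and BLOC1S1. ITGA3, a laminin receptor subunit at chr17:50055968-50090481 on the plus strand, had 211 FPKM in CTXR and 207 FPKM in DTXR, against 113 FPKM in DU145, log2 ratios of 0.90 and 0.87 that lay just outside the size rule. The collagen receptor subunits ITGA1 and ITGA2 did not pass the size rule in these comparisons. ITGA1 lay between 1.49 and 2.08 FPKM in the DU145 lineage and under 0.1 FPKM in the C4-2B lineage, and ITGA2 between 2.26 and 5.11 FPKM in all 6 libraries. ITGA6, the other laminin receptor subunit, had 28.3 FPKM in CTXR and 41.8 FPKM in DTXR, against 31.9 FPKM in DU145. In TaxR against C4-2B the log2 ratio of ITGA3 was 0.73, or 0.37 with the DU145-side share taken out, and the TaxR excess was 2.46% of the DU145 level. The ratio of ITGA3 to ITGA6 was 7.47 in CTXR and 4.96 in DTXR, against 3.53 in DU145, and 0.1998 in CabR and 0.344 in TaxR, against 0.226 in C4-2B.

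ITGB1 made up 86.1% to 94.4% of the integrin beta RNA of the list in all 6 libraries. ITGB5, which pairs with ITGAV as a vitronectin receptor, had 26.1 FPKM in CTXR and 68.6 FPKM in DTXR, against 23.8 FPKM in DU145, so DTXR stood apart at a log2 ratio of 1.49. ITGB4, which pairs with ITGA6 in hemidesmosomes, had 0.999 FPKM in CTXR and 0.483 FPKM in DTXR, against 2.77 FPKM in DU145, with a log2 ratio of -1.35 in DTXR and -0.92 in CTXR. The hemidesmosomal receptor subunit ITGB4 was thus lower in the lines in which LAMA3 was higher. CD44, at chr11:35138870-35232402 on the plus strand, had 50.1 FPKM in CTXR and 41.7 FPKM in DTXR, against 29.1 FPKM in DU145. Along the C4-2B lineage CD44 had 0.0650 FPKM in CabR and 1.65 FPKM in TaxR, against 0.120 FPKM in C4-2B, a log2 ratio of 1.24 in TaxR and -1.32 for CabR against TaxR. The TaxR excess was 5.26% of the CD44 level in DU145, and with the median DU145-side share taken out of TaxR its log2 ratio was 1.01. The 10 DU145-side markers ranged from -15.5% to 7.40% in TaxR, so the median is only 1 choice of share. What part of the TaxR value of CD44 is DU145-side was not tested.

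**Figure D4:**
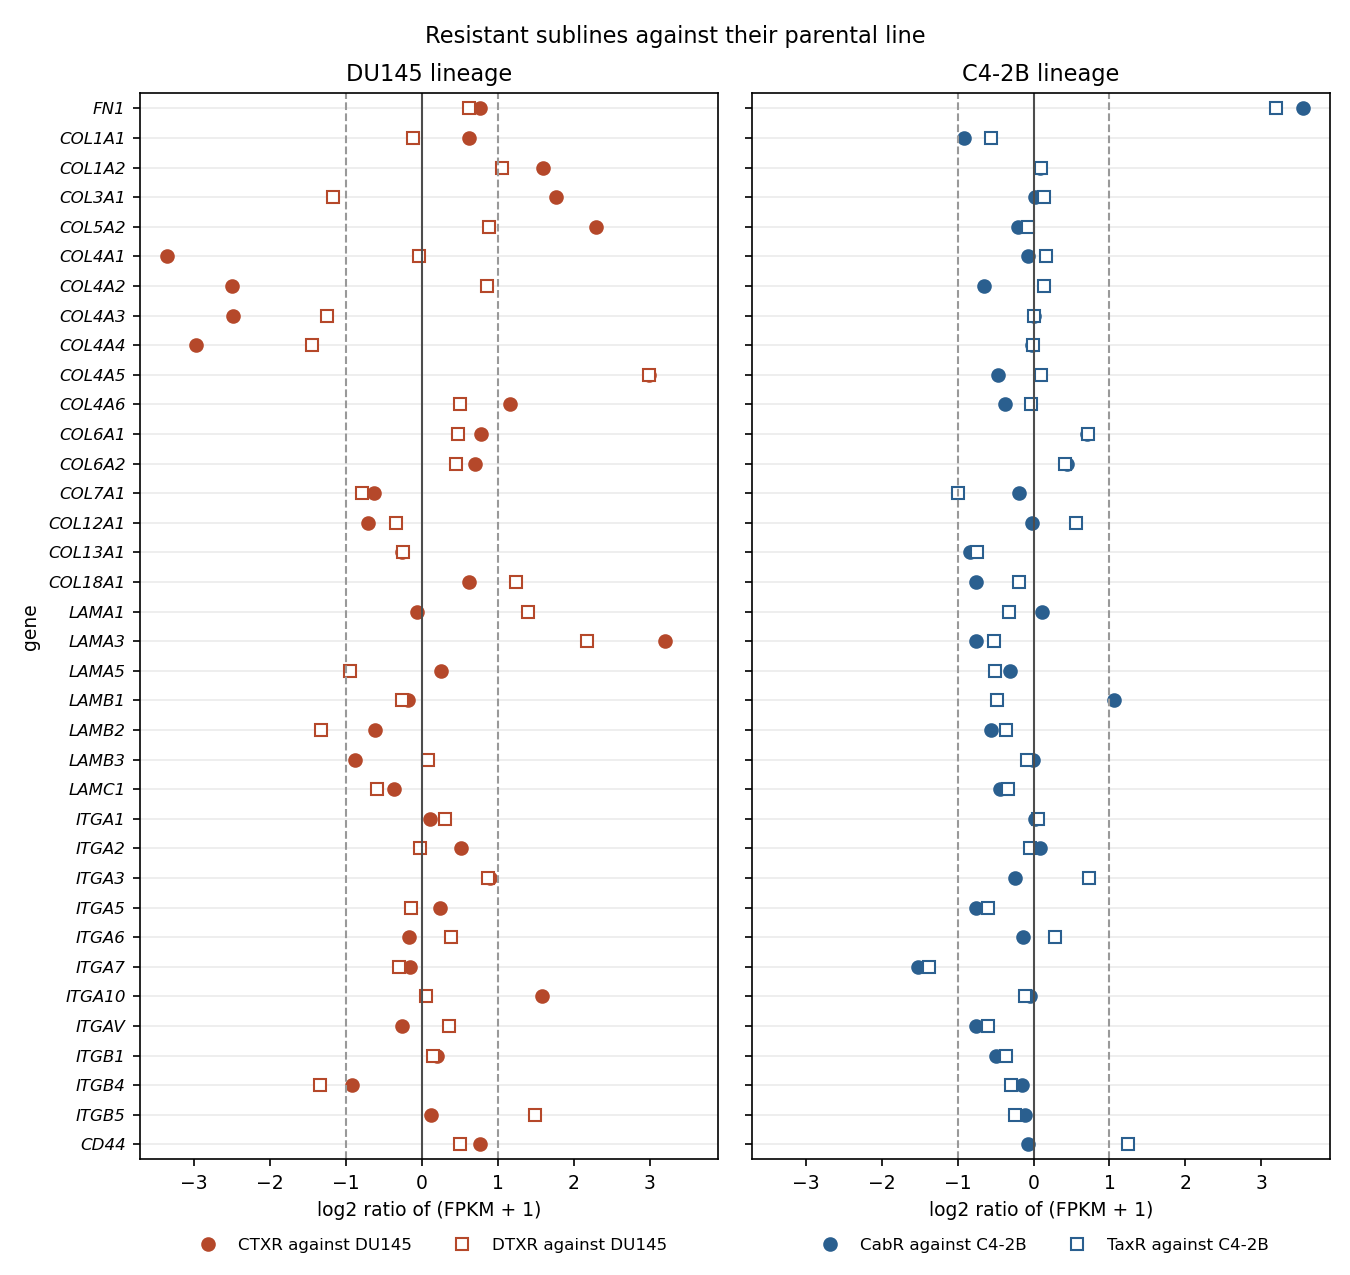
Log2 ratios of FPKM + 1 of each resistant line to its parent for the measured genes, by role, with the size rule drawn at 1 and -1. FN1 lies beyond 3 in CabR and TaxR, and the collagen IV genes lie on both sides of 0 in CTXR and DTXR.

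The pairs of resistant lines allowed a test across lines, in which both resistant lines of a lineage were set against its parent with limma on log2(FPKM + 1). The parent has 1 library and is assumed to vary like the resistant pairs, and CTXR and CabR derive from DTXR and TaxR, so the p-values measure the spread between these libraries only and not that between independent selections. By limma with Benjamini-Hochberg adjustment over all 17436 genes, no gene passed 0.05 in either lineage or for the difference between lineages. At an unadjusted p under 0.05 there were 8 of the 36 members in the DU145 lineage, beside 8.94% of all genes, 4 in the C4-2B lineage, beside 9.16%, and 5 for the difference, beside 9.52%. FN1 in the C4-2B lineage had a log2 difference of 3.37 ± 0.24 (SE) and a limma adjusted p of 0.235, and both resistant lines were higher. COL4A5 in the DU145 lineage had 2.99 ± 0.33 (SE) and an adjusted p of 0.173 by limma, and LAMA3 had 2.69 ± 0.50 (SE) and 0.339, both higher in 2 of 2 resistant lines. The difference between lineages was -2.68 for FN1, with an adjusted p of 0.343 by limma, and 3.18 for COL4A5, with an adjusted p of 0.3504. With DTXR or CTXR left out each group of the DU145 lineage has 1 library, so the spread in these fits is that between TaxR and CabR alone. COL1A2, COL4A3, COL4A4 and ITGA10 lay between 0 and 0.210 FPKM in TaxR and CabR, which leaves them little spread. Small p-values in such fits therefore cannot be read as results about these genes. Without DTXR their log2 differences in the DU145 lineage were 1.59, -2.48, -2.97 and 1.58, those of CTXR against DU145.

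Between the lineages ITGA3, ITGB1 and CD44 were the receptors that were highest on the DU145 side, and FN1 was far lower there. In DU145 against C4-2B 17 of the 36 measured genes were higher and 5 lower by the size rule, beside 17.3% and 19.5% of all measured genes, or 36.7% in either direction, and the 22 genes are 61.1% of the 36. The 5 lower were FN1, COL1A1, COL4A5, COL6A1 and LAMA3. Over the 3 libraries of each lineage 25 of the 36 genes did not overlap in FPKM between lineages, beside 55.9% of all measured genes, and 21 of the 25 were higher in the DU145 lineage, beside 27.2% of all. The limma fit took each lineage as the average of its parental value and of the mean of its resistant lines. By limma 20 of the 36 passed an adjusted p of 0.05, 15 higher and 5 lower in the DU145 lineage. Of all measured genes 39.3% passed, 18.5% higher and 20.8% lower. Some of the 36, such as COL4A3, COL4A4, COL12A1 and ITGA1, reached 1 FPKM in DU145-lineage libraries only. COL13A1 did so in C4-2B only. The filter made such genes apt to come out higher on the side through which they were measured, so these counts are descriptions. With TaxR or CabR left out no gene passed at that threshold, and 16 and 14 members, of 5983 and 6041 genes in all, had an unadjusted limma p under 0.05. The 3 libraries of a lineage descend from 1 line, so this comparison is between 2 cell lines with their sublines.

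FN1 was lower in the DU145 lineage, with a log2 difference of -5.88 ± 0.17 (SE) and an adjusted p of 0.0039 by limma, and every DU145-lineage library lay below every C4-2B-lineage library. ITGA3 had 2.56 FPKM in CabR, 5.97 FPKM in TaxR and 3.20 FPKM in C4-2B, and was higher in the DU145 lineage by 5.08 ± 0.33 (SE), with an adjusted limma p of 0.0045. ITGB1 had 472 FPKM in CTXR, 453 FPKM in DTXR and 409 FPKM in DU145, and was higher in that lineage by 1.80 ± 0.12 (SE), with an adjusted limma p of 0.0045. CD44 was higher by 4.77 ± 0.44 (SE), with an adjusted limma p of 0.0073. These 3 receptors were higher in 3 of 3 DU145-lineage libraries than in any C4-2B-lineage library. ITGA1 and ITGA5 passed as well, with differences of 1.33 and 1.62, though ITGA1 shares 475 exonic bases with PELO on the same strand. ITGA6 and ITGA7 passed with 1.14 and 0.98. Of the laminins LAMB1, LAMA1 and LAMC1 were higher by 2.97, 2.76 and 0.71, while LAMB2, LAMB3 and LAMA5 did not pass, with adjusted limma p-values of 0.0579, 0.0553 and 0.105.

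Of the collagens COL12A1, COL18A1 and COL6A2 were higher in the DU145 lineage, and COL6A1 and COL1A1 lower, by limma log2 differences of 2.20, 1.52, 0.82, -1.50 and -1.39. COL4A5 was lower by -2.41 ± 0.23 (SE), with an adjusted limma p of 0.0077, and its lowest library in the C4-2B lineage had 13.6 FPKM. COL4A3 and COL4A4 were higher by 1.72 and 1.90, near the threshold with adjusted limma p-values of 0.0404 and 0.0493. Both were measured through the DU145 lineage only and lay at or near 0 in TaxR and CabR, which leaves little spread there. Their direction and p-values thus cannot be read as results about these genes. COL4A1 did not pass, with 3.15 ± 1.05 (SE) and an adjusted limma p of 0.0840, its CTXR value standing apart from DTXR and DU145. LAMA3 passed with -1.72 and an adjusted limma p of 0.0300, although its values in the lineages overlap. Summed integrin alpha RNA of the list was 300.1 FPKM in CTXR, 309 FPKM in DTXR and 200.5 FPKM in DU145, and 41.9 FPKM in CabR, 52.7 FPKM in TaxR and 64.4 FPKM in C4-2B. ITGA3 made up 56.3% to 70.4% of it in the DU145 lineage and 4.98% to 11.3% in the C4-2B lineage.

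**Figure D5:**
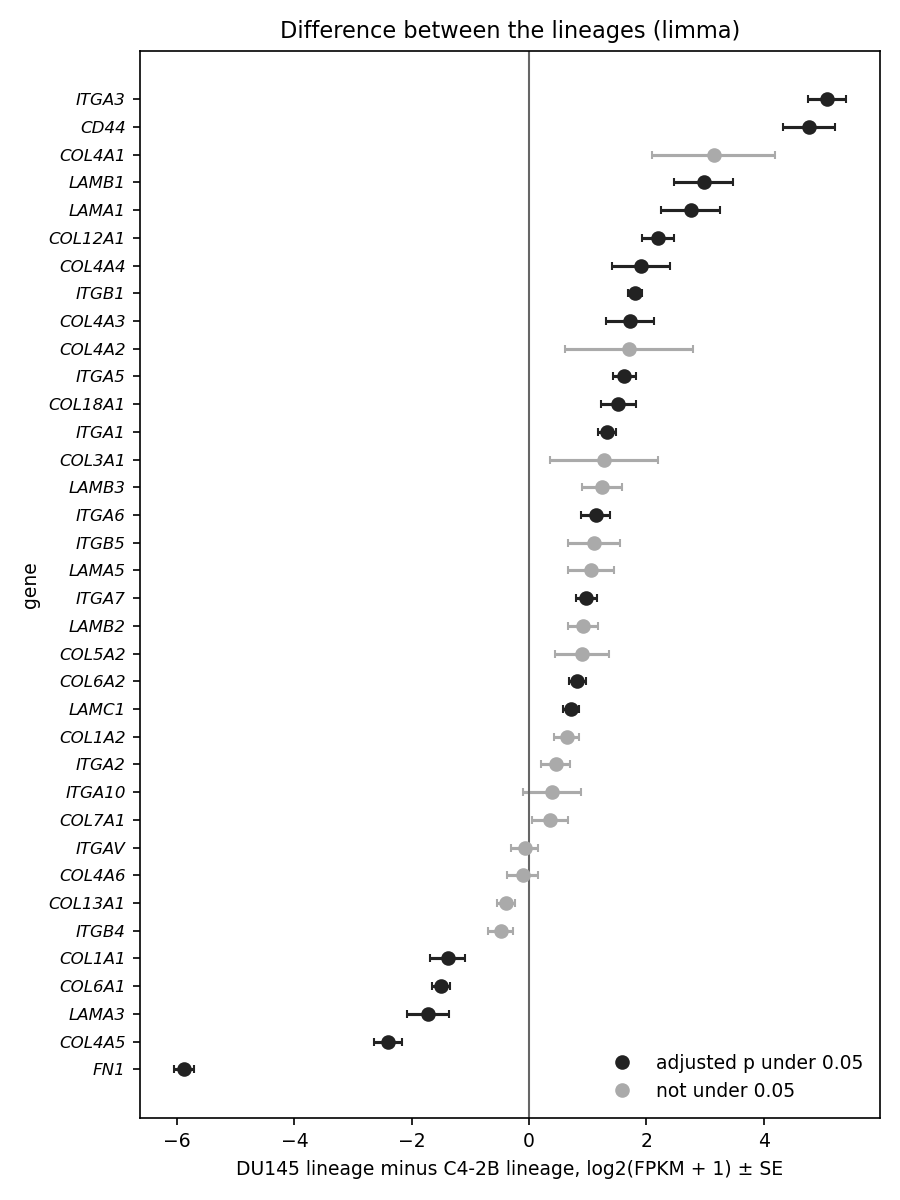
Difference in log2(FPKM + 1) between the DU145 lineage and the C4-2B lineage for the measured genes, each lineage taken as the average of its parental value and its mean over both resistant lines, with limma standard errors as bars and dark points for an adjusted p under 0.05. ITGA3, CD44 and LAMB1 are higher and FN1, COL4A5 and LAMA3 lower in the DU145 lineage.

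Genes that act on the matrix outside the 45 were read from 3 further lists. Of 18 measured genes for collagen processing, CabR had 1 higher and 5 lower than C4-2B, beside 2.67% and 6.2% of all measured genes. TaxR had none higher and 6 lower, beside 2.52% and 5.64% of all. Against DU145, CTXR had 2 higher and none lower, beside 7.45% and 5.47% of all, and DTXR none higher and 2 lower, beside 5.37% and 5.1%. LOX, which crosslinks collagen, had 1.10 FPKM in CabR and 2.24 FPKM in TaxR, against 27.5 FPKM in C4-2B. PLOD2, a lysyl hydroxylase of collagen, had 2.77 FPKM in CabR and 4.21 FPKM in TaxR, against 20.9 FPKM in C4-2B, and 113 FPKM in CTXR and 71.8 FPKM in DTXR, against 53.3 FPKM in DU145. P4HA1 and P4HA2, prolyl hydroxylases of collagen, had 25.2 and 9.03 FPKM in CabR and 33.2 and 7.81 FPKM in TaxR, against 133 and 35.5 FPKM in C4-2B. These 4 collagen-modifying enzymes were thus lower in the C4-2B sublines in which FN1 was higher. SERPINH1, the collagen chaperone HSP47, had 19.9 FPKM in CabR and 6.29 FPKM in TaxR, against 8.55 FPKM in C4-2B, and 51.0 FPKM in CTXR and 34.6 FPKM in DTXR, against 100.2 FPKM in DU145.

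Of 21 measured integrin adaptors FERMT3, the kindlin of blood cells, was the only one past the size rule between resistant and parental lines. It passed in CabR, TaxR and DTXR, beside 8.87%, 8.16% and 10.5% of all measured genes in either direction. No adaptor passed in CTXR, beside 12.9% of all. FERMT3 had 6.17 FPKM in CabR and 9.37 FPKM in TaxR, against 1.56 FPKM in C4-2B, and 0.838 FPKM in CTXR and 0.278 FPKM in DTXR, against 2.41 FPKM in DU145. PTPRC was at 0 in all of these libraries, and the summed blood cell markers were 0 in CabR and 1.65 FPKM in TaxR, against 0.754 FPKM in C4-2B. Of 17 measured further matrix and integrin genes 2 were higher and 5 lower in each of CTXR and DTXR against DU145, beside 7.45% and 5.47% of all measured genes in CTXR and 5.37% and 5.1% in DTXR. Of the same 17 genes 2 were lower in TaxR against C4-2B, beside 5.64% of all measured genes. None passed in CabR against C4-2B, beside 8.87% of all in either direction. SPP1, osteopontin, a ligand of ITGAV integrins, had 0.644 FPKM in CTXR and 122 FPKM in DTXR, against 2.25 FPKM in DU145, so it was high in DTXR alone, as ITGB5 was highest there. LAMC3, a laminin gamma chain, had 10.9 FPKM in CTXR and 0.678 FPKM in DTXR, against 11.1 FPKM in DU145.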

How the data were processed

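Per the labels' protocols, RNA was isolated with TRIzol and a directional kit gave stranded mRNA libraries. The authors deposited FPKM in 1 table per library, per the file headers. The submitters' processing notes name HISAT, StringTie, Cuffnorm and GRCh38, without versions, while annotation, use of strand and scaling were not given in the sources used. FPKM are model-based estimates: the authors' software divides reads of paralogs and overlapping genes, so that a listed 0 may stand for a failed estimate. Of the 60658 identifiers 56550 had a symbol and 57047 were in GENCODE release 29, which gave coordinates, and 35 members had a RefSeq promoter.

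FPKM were used on the log2(FPKM + 1) scale, with genes that reached 1 FPKM in a library. Pairs of lines were compared by the size rule, a log2 ratio of 1 or more in either direction. The limma model had 4 groups, lineage by parental or resistant, with an intensity trend and two-sided moderated tests, Benjamini-Hochberg adjusted over 17436 genes, and was tested on simulated data. All 45 members could be named, and of the other lists up to 4 genes per pair of lines past the size rule, by size of ratio. Genes named beyond these, such as ITGA7 overlap partners, were chosen after their values were seen. Some genes of the further lists are not reported here. The members and lists were chosen with earlier results of these data known. Alternatives were other pseudocounts, filters and scalings, other forms of the fit, the removal of a DU145-side share from TaxR and leaving out each library. Python 3.11.15, numpy 2.4.6, pandas 2.3.3, matplotlib 3.10.9, R 4.3.3 and limma 3.58.1 were used.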

Additional observations from a re-analysis of the deposited data

Results flagged for a closer look

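LAMA3 is listed here because both resistant DU145 lines lay above DU145 while both resistant C4-2B lines lay below C4-2B. The log2 difference to the parent was 2.69 in the DU145 lineage and -0.63 in the C4-2B lineage, which differ by 3.33 ± 0.71 (SE). That opposite direction was not tested by itself, and the limma test of the difference did not pass, with an adjusted p of 0.404.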

How the results depend on the processing

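With a pseudocount of 0.1 FPKM 6 members passed the size rule in CabR against C4-2B, 6 in TaxR against C4-2B and 8 in CabR against TaxR, instead of 3, 3 and 2. No direction of a called value was reversed by any alternative that was run. Of 1584 log2 ratios of single genes under the alternatives 1551 stayed on the same side of the size rule, 29 newly passed it and 4 no longer did. Of 1548 limma differences of single genes 1451 stayed on the same side of the threshold, 35 newly passed and 62 no longer did. Without a filter on low values 1 member passed in the C4-2B lineage, FN1, with an adjusted limma p of 0.0412, against 0.189 to 0.347 under the other settings, and 487 of 27541 genes passed with it. Leaving out each library in turn gave 0 members in the C4-2B lineage, 0 to 4 in the DU145 lineage, 0 to 3 for the difference between lineages and 0 to 26 between the lineages. Leaving out a parental library leaves no value for its own lineage. No paired analysis was possible because each line has 1 library and the labels carry no replicate numbers. Scaling to the same total moved the median log2 ratio of all genes to -0.12 in TaxR against C4-2B and -0.15 in DU145 against C4-2B, and scaling to the same total without mitochondrial genes moved it to 0.17 in DU145 against C4-2B. Read totals were not given, so no counting interval or limit can be set on the low values, and members below 1 FPKM in a library are estimates of unknown precision.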
